A study of Homo sapiens with 2 samples.

Results

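Chromatin accessibility was measured by ATAC-seq at the epidermal differentiation complex and the S100 gene cluster in CAMA-1, a luminal breast cancer cell line. ATAC-seq uses the Tn5 transposase to cut and tag DNA that is free of nucleosomes, so that open chromatin appears as a peak of reads. The members were the 67 of 20033 GENCODE protein-coding genes (release 44) whose gene body lay wholly within chromosome 1 from 151.9 to 153.7 Mb on hg38. They fell into 16 S100 genes, 19 LCE genes, 11 SPRR genes, 7 filaggrin-type (FLG-type) genes, 10 other genes of the complex and 4 neighbours of other function. Both samples were biological replicates of 50000 untreated CAMA-1 cells, an epithelial line of mammary origin grown as an adherent culture, and formed a single condition. No group of samples was available for comparison, so that each value is given per replicate and shares of genes are described beside the share over all protein-coding genes, without a test.

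The epidermal differentiation complex is a run of genes that keratinocytes use late in their life, when the plasma membrane is replaced by the cornified envelope. Filaggrin and its relatives bundle keratin filaments, whereas involucrin, loricrin, the small proline-rich (SPRR) proteins and the late cornified envelope (LCE) proteins are cross-linked into the envelope by transglutaminases. S100 proteins are small calcium-binding proteins with EF-hand folds that lie among and beside these genes. Several S100 proteins are made in many tissues, including glandular epithelia, whereas most of the envelope proteins are known from stratified epithelia.

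The promoters on which the results turned were those of the S100, LCE, SPRR and FLG-type genes with the strongest peak at a transcription start site (TSS) in their family, together with the promoters of involucrin (IVL) and loricrin (LORICRIN) for comparison. S100A16 and S100A14 shared their peak and are both shown. Each sequence below holds the 250 bases before the TSS, 5′ to 3′ on the gene's own strand, from RefSeq on GRCh38.p14. Capitals mark matches on either strand to the motif of AP-1 factors, searched as TGANTCA where N is any base. They also mark the box of core promoters, searched as TATAAA. The motif of forkhead (FOX) factors was searched as TGTTTAC, and that of GATA factors as AGATAA. The GRHL, AP-2, ETS and CTCF motifs spelled out further on were searched as well and had no match in these windows. The windows were chr1:153613138-153613387 (minus strand) for S100A16, chr1:153616326-153616575 (minus) for S100A14, chr1:152774890-152775139 (plus) for LCE1F, chr1:153001499-153001748 (plus) for SPRR3, chr1:152325240-152325489 (minus) for FLG, chr1:152908296-152908545 (plus) for IVL and chr1:153259437-153259686 (plus) for LORICRIN.
S100A16: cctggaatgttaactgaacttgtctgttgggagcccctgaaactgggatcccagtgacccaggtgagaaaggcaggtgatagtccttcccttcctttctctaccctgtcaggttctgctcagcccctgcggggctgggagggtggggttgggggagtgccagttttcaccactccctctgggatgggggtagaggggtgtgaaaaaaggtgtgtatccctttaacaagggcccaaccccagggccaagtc
S100A14: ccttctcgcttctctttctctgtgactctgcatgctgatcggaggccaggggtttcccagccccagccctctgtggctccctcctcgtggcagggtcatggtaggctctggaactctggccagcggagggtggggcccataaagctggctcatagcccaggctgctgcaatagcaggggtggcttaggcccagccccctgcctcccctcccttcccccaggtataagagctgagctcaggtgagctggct
LCE1F: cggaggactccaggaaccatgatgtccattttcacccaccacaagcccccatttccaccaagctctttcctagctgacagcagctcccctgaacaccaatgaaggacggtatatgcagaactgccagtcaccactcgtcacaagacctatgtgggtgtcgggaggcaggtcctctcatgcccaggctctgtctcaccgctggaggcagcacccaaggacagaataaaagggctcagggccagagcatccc
SPRR3: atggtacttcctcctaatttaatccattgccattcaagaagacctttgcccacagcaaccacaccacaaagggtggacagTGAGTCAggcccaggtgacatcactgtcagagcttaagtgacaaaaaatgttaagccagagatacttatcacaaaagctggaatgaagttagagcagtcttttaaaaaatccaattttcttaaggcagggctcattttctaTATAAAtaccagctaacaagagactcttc
FLG: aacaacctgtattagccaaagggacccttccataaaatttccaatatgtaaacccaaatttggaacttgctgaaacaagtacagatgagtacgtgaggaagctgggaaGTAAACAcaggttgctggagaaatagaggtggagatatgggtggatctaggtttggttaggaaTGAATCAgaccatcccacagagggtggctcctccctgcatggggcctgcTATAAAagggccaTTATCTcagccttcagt
IVL: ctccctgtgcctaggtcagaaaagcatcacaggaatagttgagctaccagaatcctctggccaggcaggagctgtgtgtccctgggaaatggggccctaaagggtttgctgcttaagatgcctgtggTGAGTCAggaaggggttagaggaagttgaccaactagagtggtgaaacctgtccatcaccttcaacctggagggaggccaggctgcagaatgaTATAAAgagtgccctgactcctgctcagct
LORICRIN: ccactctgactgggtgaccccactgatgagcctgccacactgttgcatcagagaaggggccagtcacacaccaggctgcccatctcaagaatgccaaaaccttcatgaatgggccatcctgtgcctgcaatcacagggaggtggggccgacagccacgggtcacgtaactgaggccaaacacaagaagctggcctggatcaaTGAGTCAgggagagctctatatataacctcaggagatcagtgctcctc

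Peaks of both replicates covered all 250 bases of the S100A16, S100A14, SPRR3 and IVL windows. At LCE1F the peaks covered 245 bases in replicate 1 and 240 in replicate 2. At FLG they covered the 118 and 143 bases nearest to the TSS, which hold the AP-1, TATA and GATA matches in both replicates and the FOX match in replicate 2 only. The LORICRIN window held no base of any peak, and the peaks counted for this gene lay 673 and 550 bp from its TSS.

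A gene was counted as having a TSS peak when a peak of each replicate lay within 1 kb of any of its annotated TSSs. Of the 67 genes, 36 had one (53.7%, 95% Wilson interval 41.9 to 65.1), beside 79.3% of all protein-coding genes. With replicate 1 alone the share was 56.7%, beside 80.1% of all genes, and with replicate 2 alone 59.7%, beside 80.6%. A further 6 genes had a TSS peak in a single replicate, and 25 had none, beside 417 and 3726 of all 20033 protein-coding genes. The low share was not found in all families, as S100 genes had a TSS peak in 15 of 16 cases (93.8%, 71.7 to 98.9), whereas the LCE, SPRR and FLG-type genes together had one in 10 of 37 (27.0%, 15.4 to 43.0). The 10 other genes of the complex lay between them with 7. The intervals cover counting error only, and genes that share a peak are not independent.

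**Figure D1:**
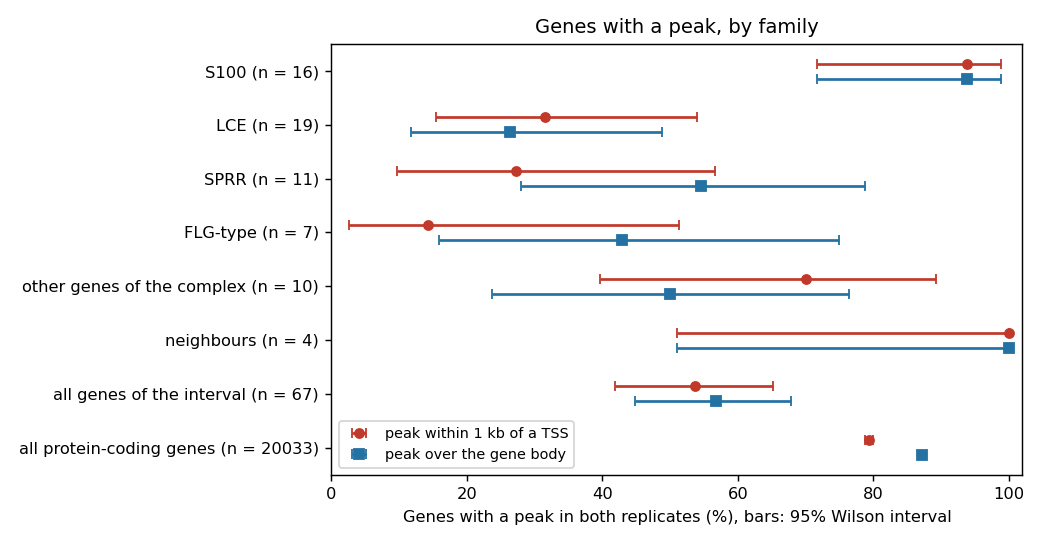
Share of genes with a peak in both replicates (horizontal axis, percent) by gene family, with circles for a peak within 1 kb of a TSS, squares for a peak over the gene body and bars for the 95% Wilson interval. S100 genes stood at 93.8% for TSS peaks, LCE genes at 31.6%, SPRR genes at 27.3%, FLG-type genes at 14.3% and all protein-coding genes at 79.3%.

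The genes on either side of the interval had TSS peaks almost without exception. In the flank of equal length before the interval, 55 of 56 protein-coding genes had a TSS peak in both replicates, and in the flank after it 58 of 58 did. THEM4, whose body crosses the start of the interval and which was therefore not a member, had a strongest TSS peak with a fold enrichment of 112 and 120 in replicates 1 and 2. INTS3, the first gene after the interval, had 287 and 297. The outermost members were S100A10 (105 and 88.0) and NPR1 (38.2 and 31.6), so that the low values lay inside the interval and not at its ends.

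Fold enrichment is the ratio that the peak caller gives for the top of a peak over its background, and the highest value within 1 kb of a TSS of a gene is given here. Over all protein-coding genes with a TSS peak its median was 51.1 in replicate 1 and 52.6 in replicate 2. The S100 genes had medians of 103 and 88.0 (95.3 ± 10.3, SD of the 2 replicates). The LCE genes had 5.41 and 5.09, the SPRR genes 6.67 and 7.74, and the FLG-type genes 4.60 and 5.75. Each median is over the few members with a peak in that replicate. These were 6 and 9 LCE genes, 4 and 4 SPRR genes, and 2 and 1 FLG-type genes, so that the genes differ in part between the replicates. In the LCE, SPRR and FLG-type families the strongest peaks thus lay below the median of all peaks in the lists (8.28 and 7.96), with the exceptions of LCE1F, LCE1E, LCE3A and SPRR3 in at least 1 replicate and of SPRR2A, which equalled that median in replicate 2.

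**Figure D2:**
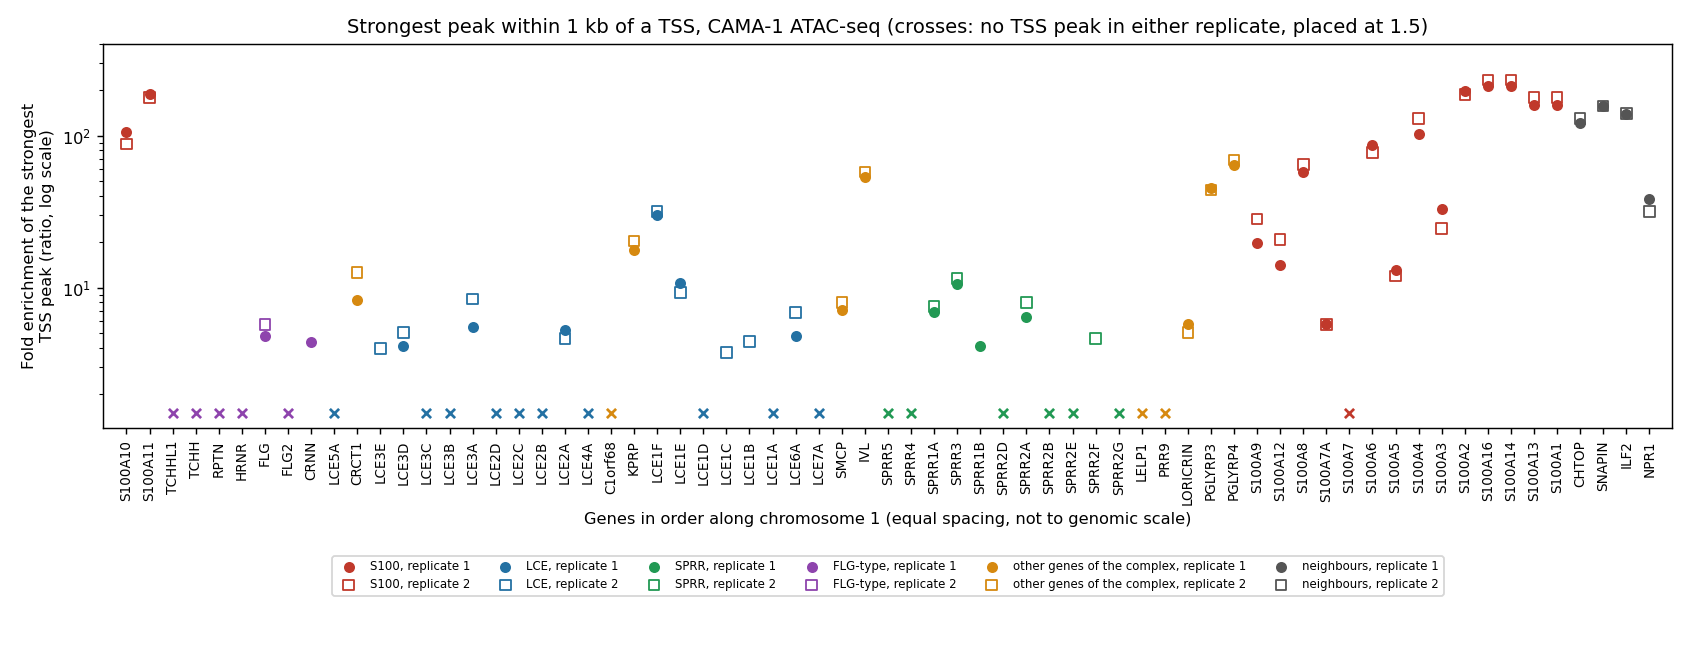
Fold enrichment of the strongest TSS peak (vertical axis, ratio, log scale) for each of the 67 genes in their order along chromosome 1 (horizontal axis, equally spaced), with filled circles for replicate 1, open squares for replicate 2 and crosses for genes with no TSS peak in either replicate. High values stand at both ends, at S100A10 and S100A11 and from S100A6 to NPR1 (S100A5, S100A3 and NPR1 lower), with LCE1F, IVL, PGLYRP3, PGLYRP4 and S100A8 above their surroundings between them.

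The S100 genes formed 3 groups along the interval. S100A10 and S100A11, which encode partners of annexins, lie apart from the others at the proximal end. S100A10 had a TSS peak with a fold enrichment of 105 in replicate 1 and 88.0 in replicate 2. S100A11 had 187 and 178, from a peak at an alternative TSS upstream (midpoint −11174 and −11189 bp from the canonical TSS). The peak over its canonical TSS had 116 and 120. Both genes exceeded the median of all genes in each replicate.

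The second group lies next to the complex and holds the calgranulins and the psoriasin genes, which are known from neutrophils and inflamed skin. S100A8, which pairs with S100A9 to form calprotectin, had a fold enrichment of 58.0 and 64.6. S100A9 had 19.6 and 28.3, and S100A12 had 14.0 and 20.8. S100A7A had 5.75 in both replicates, from a peak 852 and 872 bp away from its TSS. S100A7 (psoriasin) was the only S100 gene of the interval with no TSS peak and no gene-body peak in either replicate. Among these 5 genes, only S100A8 exceeded the median of all genes. S100A7 and S100A7A are near copies, and 10.7% and 13.3% of the 50-base words within 1 kb of their TSSs also occurred elsewhere in the genome, so that reads there may have been placed on another copy or left out, which was not tested.

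The third group runs from S100A6 to S100A1. S100A6 (calcyclin) had a fold enrichment of 86.3 and 77.6, and S100A4 (metastasin), a gene linked with cell motility, had 103 and 130. S100A5 had 13.1 and 11.9, and S100A3, known from the hair cuticle, had 32.9 and 24.5. S100A2, a gene of basal epithelial cells, had 196 and 187. Of these genes, S100A5 and S100A3 lay below the median of all genes and the others above it. A stronger peak in the S100A5 gene body (51.8 and 57.3) lay 1135 and 1004 bp from its TSS, just outside the distance of 1 kb, and was not counted.

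S100A16 and S100A14 are adjacent, and a single peak covered both TSSs with a fold enrichment of 213 and 232. The region with this peak, chr1:153607454-153618223, was 10770 bp wide, which placed it 28th in width among 215195 regions with peaks in both replicates. S100A13 and S100A1 shared a peak of 159 and 178 at chr1:153626859-153629056. A shared peak gives 1 value for 2 genes, and the 15 S100 genes with a TSS peak had 13 distinct strongest peaks, so that accessibility could not be assigned to either gene of such a pair.

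Peak heights, in stacked reads, were recovered from the steps between the values of fold enrichment. S100A9 had a height of 84 (95% Poisson interval 67.0 to 104) in replicate 1 and 127 (105.9 to 151.1) in replicate 2. For S100A4 the heights were 445 (405 to 488) and 585 (539 to 634). The S100A9 and S100A4 peaks and the peaks shared by S100A16 and S100A14 and by S100A13 and S100A1 were higher in replicate 2 with intervals that did not overlap, and no gene of the interval was higher in replicate 1 in this sense. Replicate 2 was the more deeply sequenced library, and the part of depth in these differences was not tested. Over all protein-coding genes the height in replicate 2 was 1.07 times that in replicate 1 (median), with 0.866 and 1.32 as the 5th and 95th percentiles. The S100A9 ratio was 1.51 and the S100A4 ratio 1.31. Ratios of the shared peaks were 1.14 for S100A16 and S100A14 and 1.16 for S100A13 and S100A1. These lay at percentiles 71.3 and 78.0 of all genes, within the usual range. Ratios above that of S100A9, but with overlapping intervals, were found at LCE3A (1.61), CRCT1 (1.60) and S100A12 (1.55). The share of all genes with intervals that did not overlap is not given here. Over the 36 members with TSS peaks in both replicates, Spearman's rho between the replicates was 0.986, a description over genes that share libraries and in part peaks.

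The LCE genes encode late components of the cornified envelope and lie in groups of near copies. LCE1F had the strongest TSS peak of the family, with a fold enrichment of 29.9 in replicate 1 and 31.6 in replicate 2. It was followed by LCE1E with 10.8 and 9.29. LCE3A had 5.52 and 8.40, LCE3D 4.14 and 5.09, LCE2A 5.29 and 4.64, and LCE6A 4.83 and 6.85. The peak of LCE1F thus stood apart from those of its family in both replicates, although it was below the median of all genes.

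Another 3 LCE genes had a TSS peak in replicate 2 only, with a fold enrichment of 3.98 at LCE3E, 3.76 at LCE1C and 4.42 at LCE1B. These values correspond to heights of 16 to 19 stacked reads, close to the lowest height in the lists (11), so that their absence from replicate 1 does not show a difference between the replicates. No TSS peak was found for the other 10 LCE genes (LCE5A, LCE3C, LCE3B, LCE2D, LCE2C, LCE2B, LCE4A, LCE1D, LCE1A and LCE7A). In LCE2B and LCE2C, 25.9% and 25.6% of the 50-base words within 1 kb of the TSS occurred elsewhere in the genome. For the family as a whole the median was 0.871%, and in the other LCE genes without a TSS peak the share was at most 7.84%.

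Of the SPRR genes, SPRR3 had the strongest TSS peak, with a fold enrichment of 10.6 and 11.5. SPRR1A (cornifin A) had 6.90 and 7.52, and SPRR2A had 6.44 and 7.96. SPRR1B had a TSS peak of 4.14 in replicate 1 only, and SPRR2F one of 4.64 in replicate 2 only. The other 6 SPRR genes (SPRR5, SPRR4, SPRR2D, SPRR2B, SPRR2E and SPRR2G) had none.

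SPRR2A, SPRR2B and SPRR2D had stronger peaks at their 3′ ends than within 1 kb of their TSSs. In SPRR2A the gene-body peak had a fold enrichment of 19.8 in replicate 1 and 25.4 in replicate 2, and its midpoint lay in the 3′ untranslated region, 195 and 198 bp before the end of the gene. SPRR2B had such a peak with 17.0 and 21.9, at 197 and 199 bp before its end. SPRR2D had one with 15.6 and 17.9, at 216 and 213 bp. In SPRR2F a peak at 321 bp before the end was called in replicate 2 only (4.64), and this was the peak counted at its TSS. SPRR5 likewise had a gene-body peak 217 and 204 bp before its end, with 8.28 and 9.51.

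The peaks in SPRR2A, SPRR2B and SPRR2D lay between 1015 and 1043 bp from the TSS, just outside the distance of 1 kb. Just inside it were the SPRR2F peak of replicate 2 at 954 bp and the S100A7A peak at 852 and 872 bp. Within 3 kb of a TSS, 7 of 11 SPRR genes had a peak in both replicates, beside 85% of all genes. SPRR2 genes are near copies, with 20.9% of the words around the TSS of SPRR2B and 27.3% of those in its body found elsewhere, and the part of this in the similar position of the 3 peaks was not tested.

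FLG-type genes encode large proteins with an S100-like start. FLG (filaggrin) had a TSS peak with a fold enrichment of 4.83 in replicate 1 and 5.75 in replicate 2, from heights of 20 and 25 stacked reads. CRNN (cornulin) had one of 4.37 in replicate 1 only. TCHHL1, TCHH, RPTN, HRNR and FLG2 had no TSS peak. TCHH (trichohyalin), a protein of the hair follicle, had a peak with a fold enrichment of 30.1 and 29.0 in its coding exon, 4165 and 4201 bp from the TSS. FLG2 had a peak across its 3′ end with 7.13 and 6.85. In HRNR (hornerin) 38.4% of the 50-base words of the gene body occurred elsewhere, and in FLG 16.5% did, but around their TSSs these shares were 0% and 0.717%.

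The other genes of the complex held the strongest TSS peaks outside the S100 genes and the neighbours. PGLYRP4 and PGLYRP3, which encode peptidoglycan recognition proteins active against bacteria, had a fold enrichment of 63.7 and 69.2, and of 45.1 and 44.0. IVL, an early component of the envelope, had 53.6 and 57.5, the highest value among the genes for envelope proteins in the interval and close to the median of all genes. KPRP had 17.7 and 20.3, CRCT1 8.28 and 12.6, SMCP (a protein of sperm mitochondria) 7.13 and 7.96, and LORICRIN 5.75 and 5.09. C1orf68, LELP1 and PRR9 had no TSS peak. The strongest peak at KPRP lay 825 and 819 bp from its TSS, while a second peak of each replicate covered 250 and 233 of the 250 bases before the start.

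All 4 neighbours had a TSS peak. SNAPIN, for vesicle fusion, had 156 and 157. ILF2, for a protein that binds double-stranded RNA, had 139 and 140, CHTOP, for export of mRNA, had 121 and 129, and NPR1, the receptor for atrial natriuretic peptide, had 38.2 and 31.6.

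Around the canonical TSS the families also differed in the share of genes under a peak at a given distance. At the TSS itself, 87.5% of the 16 S100 genes lay within a peak of each replicate, beside 65.8% and 66.0% of all protein-coding genes. The 37 LCE, SPRR and FLG-type genes stood at 18.9% and 27.0%. At 1100 bp downstream the S100 genes stood at 50.0% and 43.8%, all genes at 18.6% and 19.1%, and the 37 genes at 8.11% and 10.8%. In the 37 genes these values came from the gene-body peaks of SPRR2A, SPRR2B and SPRR2D described above, and in replicate 2 also from that of SPRR2F. They therefore do not measure how far the peaks at the TSS extend.

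**Figure D3:**
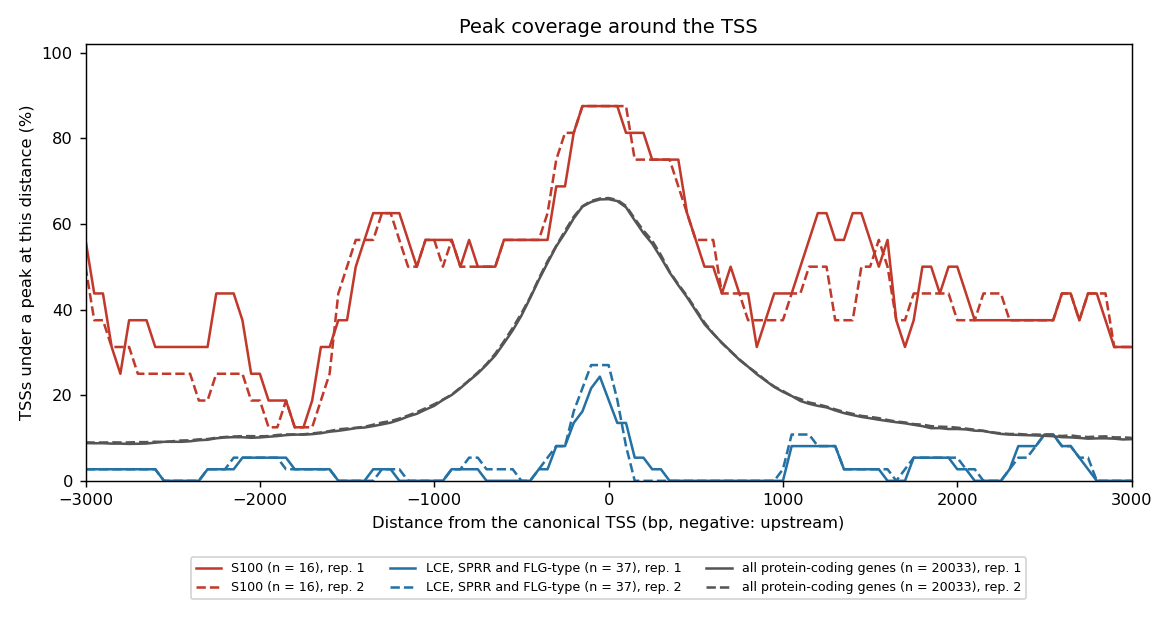
Share of genes under a peak (vertical axis, percent) at each distance from the canonical TSS (horizontal axis, bp, negative values upstream), for S100 genes, for LCE, SPRR and FLG-type genes together and for all protein-coding genes, with solid lines for replicate 1 and dashed lines for replicate 2. S100 genes reached 87.5% at the TSS, and LCE, SPRR and FLG-type genes did not exceed 27.0% at any distance.

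A gene-body peak in both replicates was found for 38 of the 67 genes (56.7%), beside 87.2% of all protein-coding genes. It was found for 15 of 16 S100 genes, 6 of 11 SPRR genes, 5 of 19 LCE genes, 3 of 7 FLG-type genes, 5 of 10 other genes of the complex and 4 of 4 neighbours. The genes of the interval are short, with a median length of 2050 bp (1257 bp for LCE genes) beside 27471 bp over all genes. Per kb of gene body the median number of peaks was 0.240 in the interval and 0.136 over all protein-coding genes. A single peak at the start of a gene adds more per kb in a short gene. The higher value per length therefore does not show that peaks are denser inside these gene bodies. The median per kb was 0.608 in S100 genes, 0.722 in neighbours, 0.358 in SPRR genes, 0.0433 in FLG-type genes, 0.0316 in the other genes of the complex and 0 in LCE genes. Peaks at the start of a gene also counted, and with only peaks more than 1 kb from every TSS of the gene the number fell to 21 of 67, beside 70.5% of all genes. Genes as short as those of the interval have little or no body beyond 1 kb of a TSS. The 21 of 67 and the 70.5% are therefore not comparable.

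The interval had more open regions per Mb than chromosome 1 or all chromosomes and fewer than either flank. It held 280 regions with peaks in both replicates, or 156 per Mb, beside 97.6 per Mb over chromosome 1, 73.3 over all chromosomes, 208 in the flank before and 287 in the flank after. Of these regions, 194 (69.3%) lay between protein-coding genes, 53 (18.9%) within 1 kb of a TSS and 33 (11.8%) elsewhere in a gene body. Over all chromosomes, 32347 of 215195 regions lay within 1 kb of a TSS, and the share between genes is not given here. In replicate 1 the regions between genes had a median fold enrichment of 11.3 and those at TSSs 10.8. In replicate 2 these medians were 12.6 and 11.9. Of the peaks in the interval, 87.3% of 331 in replicate 1 and 88.6% of 325 in replicate 2 overlapped a peak of the other replicate.

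Density followed the blocks of genes. It was 292 regions per Mb from S100A10 to S100A11, 75.7 from TCHHL1 to CRNN, 99.9 from LCE5A to LCE7A, 104 from SMCP to LORICRIN, 171 from PGLYRP3 to S100A7, 349 from S100A6 to S100A1 and 450 from CHTOP to NPR1. The block of FLG-type genes was thus close to the density of all chromosomes. Peaks covered 37.8% of the bases from S100A6 to S100A1 and 3.02% of those from TCHHL1 to CRNN.

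**Figure D4:**
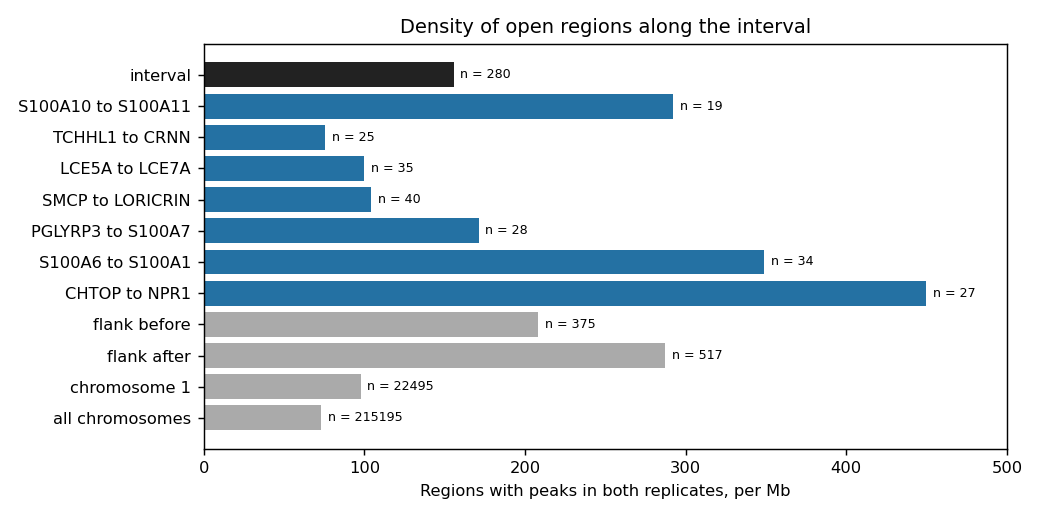
Number of regions with peaks in both replicates per Mb (horizontal axis) for the whole interval, for 7 blocks of genes within it, for the flanks of equal length and for chromosome 1 and all chromosomes, with the number of regions beside each bar. The block from TCHHL1 to CRNN had 75.7 per Mb, and that from S100A6 to S100A1 had 349.

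Among the strongest regions of the interval by mean fold enrichment were those of S100A16 and S100A14, of S100A2 (chr1:153565395-153567387), of the alternative TSS of S100A11 (chr1:152047532-152048824) and of S100A1 and S100A13. Strong regions between genes were also found at chr1:152742709-152744126 (136 and 150.8), 13899 bp from KPRP and 173 bp from the start of the LCE pseudogene LCEP1, and at chr1:153355363-153356024 (113 and 125), 1830 bp from S100A9. The latter 2 were chosen after their values were seen.

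Stretches without any region were found among the envelope genes. The longest, chr1:152227624-152325170, was 97547 bp long, began upstream of HRNR and took in nearly all of the FLG gene up to the peak at its TSS. A stretch of 57102 bp held SPRR2G, one of 42741 bp held TCHHL1, one of 42537 bp held LCE3C, LCE3B and LCE3A, and one of 42391 bp held LCE1D, LCE1C, LCE1B and LCE1A. The stretch with LCE3A ended at the peak counted for that gene, which lay 142 and 193 bp from its TSS. Within these 5 stretches, replicate 1 had 1 peak and replicate 2 had 3 that the other replicate lacked.

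Most promoters of the interval are poor in CpG. In the window from 250 bases before to 50 after the canonical TSS, the observed over expected CpG ratio had a median of 0.196 in S100 genes, 0.142 in LCE genes, 0.111 in SPRR genes, 0.0644 in FLG-type genes and 0.870 in neighbours, beside 0.775 over all protein-coding genes. Only 7 of the 67 genes reached 0.7, namely S100A10, S100A11, S100A6 and the 4 neighbours, and all 7 had a TSS peak, beside 93.0% of all genes in that class. The other 60 genes were below 0.4. Of these, 29 (48.3%) had a TSS peak, beside 49.7% of the 4851 protein-coding genes below 0.4. The share in these 60 genes together was thus close to that of genes with few CpGs in general, although their families differed widely. Within this class 12 of 13 S100 genes (92.3%, 66.7 to 98.6) had a TSS peak and 10 of 37 LCE, SPRR and FLG-type genes did (27.0%, 15.4 to 43.0).

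**Figure D5:**
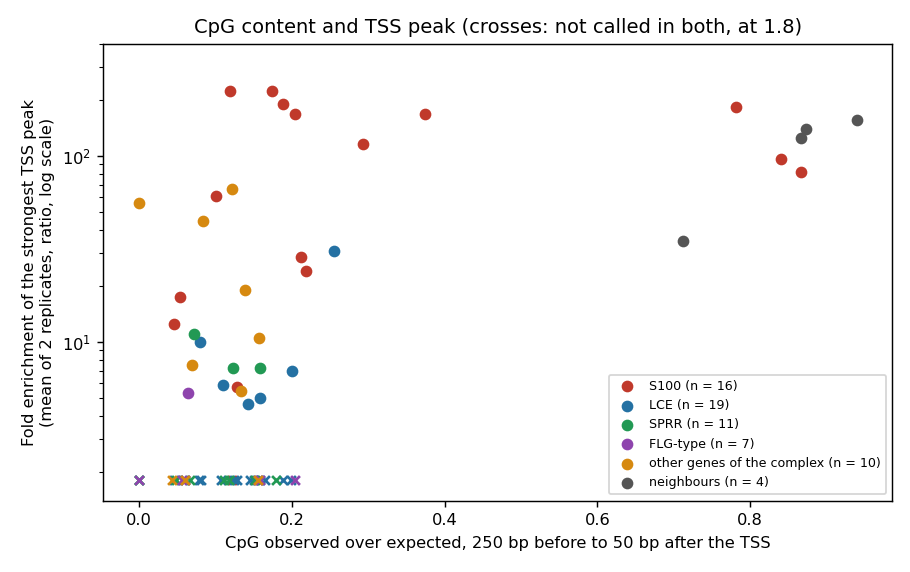
Fold enrichment of the strongest TSS peak (vertical axis, mean of both replicates, ratio, log scale) against the observed over expected CpG ratio of the promoter (horizontal axis) for the 67 genes, coloured by family, with crosses for genes without a TSS peak in both replicates. Below a CpG ratio of 0.4, S100 genes spread from weak peaks to the strongest ones, whereas LCE, SPRR and FLG-type genes stay low. For S100A11 the peak lies at an alternative TSS and the CpG ratio is that of the canonical one.

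A RefSeq promoter was matched to 63 of the 67 genes. TATAAA occurred on either strand in the 250 bases before the TSS in 32 of 63, beside 10.7% of 35116 RefSeq promoters. It was found in 8 of 9 SPRR, 5 of 7 FLG-type, 9 of 18 LCE and 7 of 16 S100 promoters. TGANTCA, the AP-1 motif, occurred in 20 of 63, beside 6.57% of all promoters. It was found in 6 of 7 FLG-type, 6 of 9 SPRR, 4 of 16 S100 and 0 of 18 LCE promoters. AP-1 factors are known to act in keratinocyte differentiation. Of the FLG-type promoters with this motif, only that of FLG had a TSS peak in both replicates. In the SPRR family 3 of 6 did, and in the S100 genes 4 of 4 did (S100A12, S100A2, S100A3 and S100A5). With or without the motif, 1 of 7 FLG-type, 3 of 11 SPRR and 15 of 16 S100 genes had such a peak. Over the interval it was found at 10 of 20 genes with the motif, beside 36 of 67 genes. The peak counted for SPRR2A covered 0 of its 250 promoter bases. A relation of motif and peak was not tested. GCCNNNGGC (AP-2) was found in 9 of 63 promoters, beside 19.8% of all. The GRHL motif was found in 5 of 63, beside 1.49% of all, and the FOX motif in 4, beside 2.98%. GATA was found in 8 (beside 9.17%), ETS in 1 (beside 8.52%) and the CTCF core in 4 (beside 8.61%). A match is a description of the letters and not of a bound site.

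In the 300 bases around the midpoints of open regions, TGANTCA was found in 49 of 280 regions of the interval (17.5%, 13.5 to 22.4), beside 13.5% of all regions. Near TSSs it was found in 12 of 53 (22.6%, 13.5 to 35.5), beside 8.00% of all regions near TSSs, and farther away in 16.3% beside 14.5%. The other motifs were GRHL (AACCNGTT, 1.79% beside 3.66%), AP-2 (11.4% beside 15.6%), FOX (8.21% beside 7.38%), GATA (14.3% beside 14.3%), ETS (CCGGAAG, 0.357% beside 2.21%) and the CTCF core (AGNNGGCGC, 3.93% beside 4.19%), on both strands.

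Genes of the same pathway elsewhere in the genome were listed for comparison. Of 25 genes for the cornified envelope and the skin barrier, 16 had a TSS peak in both replicates (64.0%), beside 79.3% of all protein-coding genes, the share against which the counts below also stand. Among those with a peak the median fold enrichment was 30.1 and 29.2, beside 51.1 and 52.6 over all genes. The strongest were EVPL (envoplakin) with 131 and 140, TGM1 (transglutaminase 1) with 77.1 and 84.9, DSP (desmoplakin) with 67.9 and 60.4 and PPL (periplakin) with 60.3 and 59.7. Weak peaks were also counted, as at DSC1 (4.14 and 5.97) and KLK5 (5.75 and 7.96). No TSS peak was found for TGM3, CSTA, DSG1, KRT1, KLK7 and CERS3. Among regulators of epidermal differentiation, the 8 described here all had a TSS peak in both replicates. GRHL2 had 131 and 138, OVOL1 129 and 139, GRHL3 87.4 and 80.0, ZNF750 71.3 and 77.6, GRHL1 57.8 and 58.4, KLF4 45.1 and 47.8, PRDM1 34.3 and 30.7, and TP63, the regulator of basal cells, 5.29 and 6.41. Among S100 genes outside the interval, S100P had 46.9 and 41.8 and S100B 4.60 and 6.19, while S100G and S100Z had no TSS peak.

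The labelled cell type was checked by markers. The luminal markers KRT8, KRT18, KRT19 and EPCAM all had TSS peaks, with fold enrichments from 85.1 to 147. Of the basal and keratinocyte markers, KRT14 had 28.5 and 25.4, KRT5 had 10.8 and 9.73, KRT10 had 5.09 in replicate 2 only and KRT1 had none. Accessibility was measured here and not expression, so that a peak at a TSS does not show that the gene was transcribed.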

How the data were processed

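CAMA-1 ATAC-seq was analysed in 2 biological replicates. Per the submitters' processing notes and methods, the authors trimmed reads with Trim Galore (v0.6.5), aligned them to hg38 with Bowtie2 (v2.3.5.1) and called peaks in each replicate with MACS2 (v2.2.6). Settings of the peak caller, treatment of duplicates and excluded regions are not given in the sources used here. The deposited lists (245736 and 259745 peaks) have no header. From their values and order, as in MACS2 output, the columns were read as the authors' score, fold enrichment (ratio to the background of the caller), −log10 p and −log10 q, and all strengths and heights rest on this reading. The score restated the −log10 q. The lists hold no read totals, and read depth was not used here. The study lists replicate 2 as sequenced more deeply than replicate 1.

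Fold enrichments were whole multiples of one step per replicate (all within 0.0001 steps), taken as (height + 1) / (background + 1), which gave heights in stacked reads and backgrounds of 3.35 and 3.52. Heights and their exact Poisson intervals (95%) cover counting error only. Genes and TSSs came from GENCODE release 44. Regions merged overlapping peaks (at least 1 bp) of both replicates. CpG ratios and 50-base words were read from hg38, and promoters from RefSeq (GRCh38.p14). Overlap, merging and height functions were tested on simulated lists. Python (v3.11.15), numpy (v2.4.6), pandas (v2.3.3), scipy (v1.17.1) and matplotlib (v3.10.9) were used.

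Every gene of the interval was accounted for, with values for each S100 gene, each other gene with a TSS peak and the 5 strongest regions. Of these regions 1, and 1 gene of a comparison list, are not reported here. The members, lists and motifs were chosen with earlier results of these data known. No statistical test was made, since there was a single condition. Alternatives were stricter peaks (−log10 q of at least 10, or the 50000 strongest), TSS distances of 3 kb and 100 bp, the canonical TSS only, other rules of overlap, and each replicate alone.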

Additional observations from a re-analysis of the deposited data

How the results depend on the processing

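The order of S100 genes above LCE, SPRR and FLG-type genes in the share with a TSS peak was found under each peak threshold, TSS distance and choice of replicate that was tried. Of 53 recomputed values, 35 stayed within 1.5 times the count or within 1 SD, and 18 moved. For the median fold enrichment of S100 genes the SD came from the 2 replicates. Each replicate alone was therefore bound to lie within it, and those values are no check. For the regions per Mb the SD (2.36) came from the counts of each replicate alone. Regions with peaks in both replicates are fewer by construction, so that each replicate alone was bound to count as moved. Small changes under the other settings also count as moved against so small an SD. With the 50000 strongest peaks, 19 of the 67 genes had a TSS peak (background 61.4%), with 11 S100, 1 LCE, 0 SPRR and 0 FLG-type genes, and 21 genes had a gene-body peak (background 71.2%). With a −log10 q of at least 10, LCE genes with a TSS peak numbered 3 and FLG-type genes 0 (background 76.9%). Within 3 kb, LCE genes numbered 10 and SPRR genes 7 (background 85.0%). With one replicate alone, FLG-type genes numbered 1 to 2 (background 80.1% and 80.6%). Gene-body peaks were found for 25 genes with the midpoint inside the body (background 83.1%) and for 21 with only peaks more than 1 kb from every TSS (background 70.5%). The last setting leaves short genes little or no body to count. The median fold enrichment of S100 genes was 106 within 100 bp of a TSS. Regions per Mb of the interval were 119 at a −log10 q of at least 10, 48.9 with the 50000 strongest peaks, 147 with a reciprocal overlap of 50% and 181 to 184 with the peaks of one replicate alone. The stricter thresholds remove weak peaks by construction. The weakest TSS peaks, with heights under about 25 stacked reads, are those that depth limits most. No paired analysis was possible because the study has a single group of 2 samples.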
